A study of Mus musculus with 12 samples.

Results

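The genes described here are 6 regulators of the unfolded protein response in mouse eggs: Ddit3, Atf4, Xbp1, Atf6, Ern1 and Trib3. They are 6 of the 18193 genes that the array measures under a single symbol. They were chosen by name, as every probe set whose single gene symbol is one of them, which gave 19 of the array's 45101 probe sets. Of these, 7 probe sets of 4 genes were bright enough to be tested, among 11593 tested in all: 1 of Ddit3 and 2 each of Atf4, Atf6 and Ern1. No probe set of Xbp1 or Trib3 was.

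The unfolded protein response adjusts the secretory pathway when proteins misfold in the endoplasmic reticulum (ER). The membrane proteins IRE1 (encoded by Ern1), ATF6 and PERK (encoded by Eif2ak3) sense the misfolding. IRE1 splices the Xbp1 mRNA, ATF6 is cut to release a transcription factor, and PERK phosphorylates the translation factor eIF2alpha, which favours translation of the Atf4 mRNA. ATF4 in turn drives Ddit3, whose product CHOP is a transcription factor linked to cell death under prolonged stress, and Trib3, which encodes a pseudokinase that restrains ATF4 and CHOP. Much of this control acts by splicing, cleavage and translation, which signals summed over whole transcripts do not show. Full-grown oocytes make little new RNA, so their transcripts are largely a store that is translated and degraded during maturation.

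The study asked how loss of the decapping proteins Dcp1a and Dcp2, which remove the 5′ cap of mRNAs before decay, affects transcripts during mouse oocyte maturation. All oocytes were full-grown germinal vesicle oocytes of the CF1 strain, and the labels give no age of the animals. They were injected with a control siRNA, a pool of Dcp1a siRNAs, a pool of Dcp2 siRNAs, or both pools mixed (the double knockdown). After injection, all 4 groups were kept in the meiotic inhibitor milrinone for 20 h and then matured without it for 18 h to metaphase II (MII) eggs. Each group held 3 samples, named as independent biological replicates, each a pool of 30 eggs on 1 microarray. Values are array intensities, on a scale that starts at 4.9. Probe sets above 32 (log2 of 5) on at least 3 of the 12 arrays were tested with limma, and "called" means a Benjamini-Hochberg adjusted p under 0.05 over all tested probe sets. Intensities are given with the SD over 3 arrays, and log2 changes with limma's standard error. Levels on different probe sets are not comparable.

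The Dcp1a probe set 1433606_at read 8632 ± 3553 in controls, 1011 ± 365 after Dcp1a siRNA, 8031 ± 1990 after Dcp2 siRNA and 791 ± 387 in the double knockdown. The Dcp2 probe set 1455070_at read 48.1 ± 29.2 in controls and 46.2 ± 12.6 after Dcp1a siRNA, and 4.97 after Dcp2 siRNA and 4.93 in the double knockdown, both at the floor, Dcp2 siRNA replicate 2 (4.9) included. Of 13 egg markers, 12 were on the array and all 12 passed the filter. Their summed intensity was 93255.5 to 125889.4 in controls, 126824.9 to 143012.5 after Dcp1a siRNA, 98455.3 to 123980.8 after Dcp2 siRNA and 145418.3 to 149485.1 in the double knockdown. Of the 16 cumulus and granulosa markers on the array, 2 passed: Kitl (19.7 to 47.8 over all arrays) and Nr5a2 (1202.6 to 2579.7). The sums over all 16, untested markers included, were 1620.9 to 2226.6, 2439.5 to 2523.7, 1757.6 to 2677.8 and 1309.1 to 1572.2 in the same order. The defining markers Fshr, Amh, Amhr2, Inha and Inhba were at the floor on every array. Of 9 markers of other ovarian, stromal or blood cells, 1 passed (Kdr), which read 38.3 to 62.1. The sums over all 9, untested markers at their floors included, were 83.7 to 106.4 over all arrays. In pooled eggs, fewer cells holding a transcript and less of it per cell cannot be told apart. Over the tested probe sets, 4 of the 12 arrays correlated best with an array of another group, and these were all 3 controls and Dcp2 siRNA replicate 2. For control replicate 1, correlations were 0.978 to 0.988 to the Dcp1a siRNA group and 0.938 to 0.954 to its own group. For Dcp2 siRNA replicate 2 they were 0.978 to 0.985 and 0.938 to 0.963. On the targeted transcripts both arrays read as labelled: Dcp1a was 12427.1 on control replicate 1 and 10247.9 on Dcp2 siRNA replicate 2, above every Dcp1a siRNA array, and Dcp2 was at the floor on the latter. Whether samples were mixed was not tested further. Where leaving out either array changed a followed call of a gene described below, that is said beside it. Members were followed in every comparison. Other genes were followed in the double knockdown against control, and some in the departure from additivity described below. In other comparisons those genes were followed at most as counts. Counts of calls with single arrays left out are given in the section on how the results depend on the processing.

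The 250 bases upstream of Ddit3 are shown because Ddit3 was the member gene that was called. The sequence is from RefSeq (GRCm38.p6, chr10:127290543-127290792, plus strand, 5′ to 3′), ending just before the gene's start. Capitals mark the match to a loosened form of the ER stress response element on the reverse strand.
Ddit3 upstream: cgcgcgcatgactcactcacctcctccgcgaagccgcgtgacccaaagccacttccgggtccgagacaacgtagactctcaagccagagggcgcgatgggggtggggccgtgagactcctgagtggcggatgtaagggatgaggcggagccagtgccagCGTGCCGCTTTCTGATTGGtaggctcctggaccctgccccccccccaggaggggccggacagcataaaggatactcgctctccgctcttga
RefSeq held a promoter window, from 250 bases before to 50 after the start, for 5 of the 6 members (all but Atf6). On both strands, the ER stress response element (CCAAT and CCACG with 9 bases between) was in 0 of these 5 windows and in 39 of all 32851 windows (0.119%). The composite element TTGCATCA bound by ATF4 with C/EBP factors was in 0 member windows and in 0.895% of all, and the XBP1 and ATF6 element TGACGTGG was in 0 member windows and in 0.676% of all. The looser pattern (CCAAT and CACG with 10 bases between), which also takes in every match of the full element and was chosen after the Ddit3 window was read, was in 1 member window, that of Ddit3, and in 0.265% of all. Its match starts 91 bases before the gene's start. A match of letters describes the window and shows no binding.

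Ddit3 rose in eggs injected with both siRNA pools. The gene lies at chr10:127290793-127296291 (GRCm38.p6). Its probe set 1417516_at read 42.1, 39.9 and 45.8 in the 3 control arrays and 34.4, 43.2 and 26.1 after Dcp1a siRNA. It read 60.8, 36.5 and 40.1 after Dcp2 siRNA. In the double knockdown it read 155.5, 114.9 and 225.2. The 3 double knockdown arrays thus all lay above the other 9, which ran from 26.1 to 60.8, while the other 3 groups overlapped. The group means were 42.6 ± 2.98 in controls, 34.6 ± 8.55 after Dcp1a siRNA, 45.8 ± 13.1 after Dcp2 siRNA and 165 ± 55.8 in the double knockdown.

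Against controls, the double knockdown raised Ddit3 3.74-fold, by 1.90 ± 0.29 on the log2 scale (95% interval 1.27 to 2.53, limma adjusted p = 0.00251). Ddit3 was the 1 member probe set of 7 that was called higher, with 0 called lower. Over all probe sets, 6.62% were called higher in this comparison and 2.1% lower, so 1 of 7 describes Ddit3 and not the members as a group. Its change exceeded that of 97.5% of the tested probe sets. The rise was also called against Dcp1a siRNA alone (2.23 ± 0.29, adjusted p = 0.000648) and against Dcp2 siRNA alone (1.83 ± 0.29, adjusted p = 0.00284). In these comparisons, too, Ddit3 was the 1 member called. The backgrounds were 8.27% higher and 3.79% lower against Dcp1a siRNA, and 6.12% higher and 0.25% lower against Dcp2 siRNA. All 3 comparisons share the double knockdown arrays.

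The single knockdowns did not show such a change of Ddit3. Its log2 difference from control was -0.33 ± 0.29 after Dcp1a siRNA (95% interval -0.96 to 0.30, adjusted p = 0.853) and 0.07 ± 0.29 after Dcp2 siRNA (-0.56 to 0.70, adjusted p = 0.913). Against controls, 0 of the 7 member probe sets were called by limma after either single siRNA. At an unadjusted p under 0.05 there was 1 after Dcp1a siRNA and 0 after Dcp2 siRNA. With all arrays fitted, calls were rare over the whole array as well, at 0.0518% of probe sets after Dcp1a siRNA and 0.0173% after Dcp2 siRNA. These were 6 and 2 probe sets, and this rarity depended on control replicate 1. With single arrays left out, the counts ran from 1 to 372 and from 0 to 223, both highest without control replicate 1. Member calls against control stayed at 0 after either single siRNA in those fits. Between the single knockdowns, Dcp2 against Dcp1a siRNA, 0 members were called (1 at an unadjusted p under 0.05), against 0.0604% of all probe sets (0.0173% higher, 0.0431% lower).

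The excess over the sum of the single changes was tested directly. For Ddit3 this departure from additivity was 2.16 ± 0.40 on the log2 scale (adjusted p = 0.0132), and the other 6 member probe sets were not called. Over all probe sets, 3.9% departed upward and 0.0345% downward. Without the filter on dim probe sets the adjusted p of Ddit3 rose to 0.0978. It was 0.0131 to 0.0978 over 20 alternatives and under 0.05 in 19 of them.

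Ddit3 was dim on this array, at the 17.2 percentile of tested probe sets by its mean. It was above 32 on 11 of 12 arrays, and none of its values repeated between arrays, while 1173 tested probe sets (10.1%) had 1 value on 3 or more arrays. The increase over control was called in all 21 alternative analyses, at 1.65 to 2.14 on the log2 scale with adjusted p from 0.00169 to 0.0291. The second Ddit3 probe set, 1443897_at, read 4.9 to 5 on every array and was not tested.

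**Figure D1:**
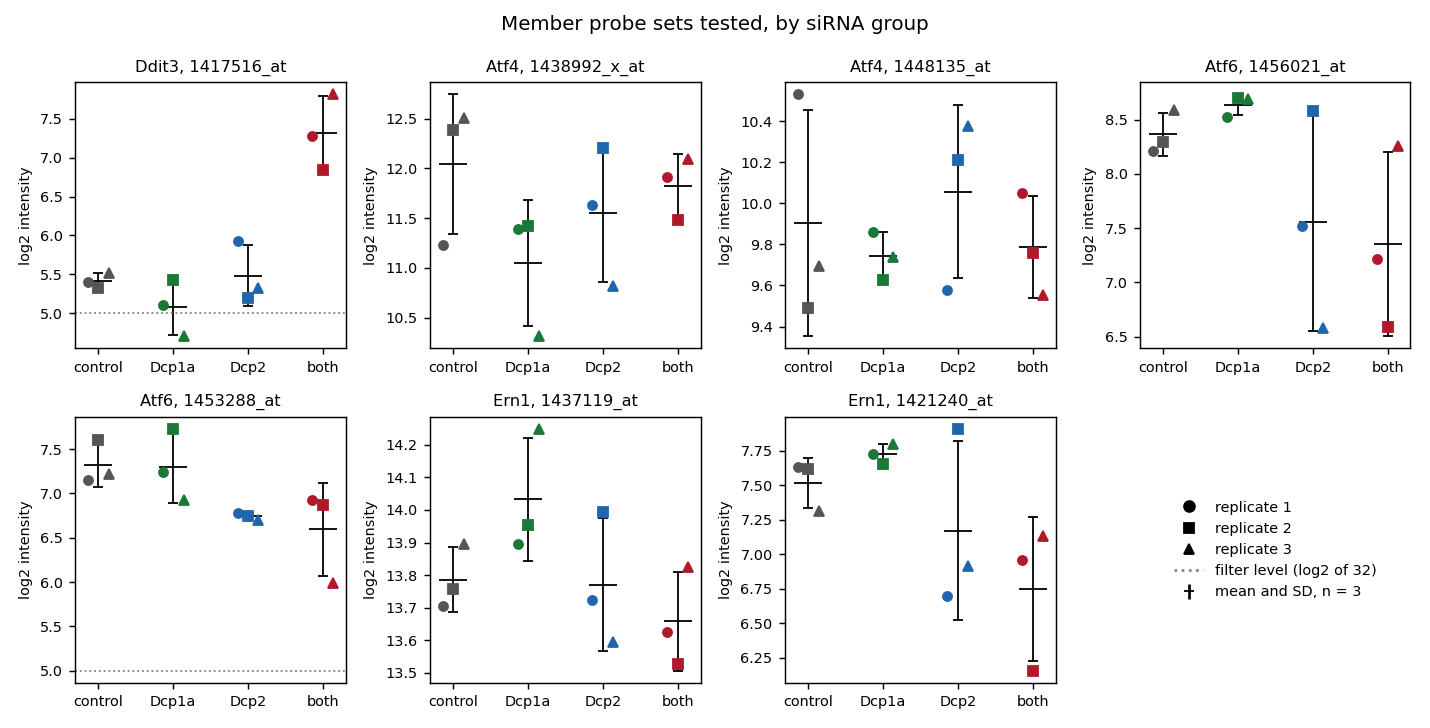
Log2 intensity of the 7 tested member probe sets (y axis) by siRNA group (x axis), with replicates 1, 2 and 3 as circles, squares and triangles, bars for the mean and SD of 3 arrays, and a dotted line at log2 of 32. The 3 double knockdown arrays of Ddit3 lie above all 9 others, and no other panel shows that separation upward.

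Atf4, the transcription factor upstream of Ddit3, was not called on either tested probe set. The gene lies at chr15:80255184-80257545. Probe set 1438992_x_at read 2402.4, 5335.9 and 5819.3 in controls and 3852, 2850.3 and 4372.8 in the double knockdown. It read 2693.4, 2750.5 and 1273.7 after Dcp1a siRNA, and 3168.7, 4727.8 and 1809.1 after Dcp2 siRNA. The controls alone spanned most of this range, with replicate 1 low, and overlapped the double knockdown. The log2 difference of the double knockdown from control was -0.21 ± 0.44 (95% interval -1.19 to 0.77, adjusted p = 0.769), and without control replicate 1 it was -0.62. After Dcp1a siRNA the difference was -0.99 ± 0.44 (adjusted p = 0.853, unadjusted p = 0.0469). Leaving out control replicate 1 gave -1.40 (adjusted p = 0.103). After Dcp2 siRNA it was -0.49 ± 0.44 (adjusted p = 0.569), with -0.89 without control replicate 1 (adjusted p = 0.228) and -0.81 without Dcp2 siRNA replicate 2 (adjusted p = 0.259).

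The second Atf4 probe set, 1448135_at, read 1477.9, 719.4 and 828.1 in controls, 930.4, 789.7 and 853.8 after Dcp1a siRNA, 764.7, 1184.3 and 1328.9 after Dcp2 siRNA, and 1060.5, 865.1 and 751.6 in the double knockdown. Here control replicate 1 was the highest control, and every group overlapped the controls. The difference of the double knockdown was -0.12 ± 0.29 (95% interval -0.76 to 0.52, adjusted p = 0.807). The 2 Atf4 probe sets did not move together over the 12 arrays (r = -0.31, arrays shared), and control replicate 1 was the lowest control on 1 and the highest on the other. The suffix _x_at marks probes that may also match other transcripts. The third probe set, 1439258_at, stayed at 5.2 to 5.9. The interval of the double knockdown was wider on 1438992_x_at than on 1448135_at.

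Atf6, a sensor that becomes a transcription factor when cut, read lower than in controls on most arrays with Dcp2 siRNA but was called in no comparison of the 12 arrays. The gene lies at chr1:170704457-170868585. Probe set 1456021_at read 296.5, 314.8 and 384.6 in controls and 368.6, 415.3 and 412.3 after Dcp1a siRNA. It read 183.3, 383.6 and 95.3 after Dcp2 siRNA and 148.3, 95.9 and 307 in the double knockdown. Dcp2 siRNA replicate 2 and double knockdown replicate 3 lay at control level, and the other 4 arrays that received Dcp2 siRNA lay below every control. The log2 difference from control was -1.01 ± 0.48 in the double knockdown (95% interval -2.08 to 0.05, adjusted p = 0.195) and -0.81 ± 0.48 after Dcp2 siRNA (adjusted p = 0.440). Without Dcp2 siRNA replicate 2 the latter was -1.32 (adjusted p = 0.0986). After Dcp1a siRNA it was 0.27 ± 0.48 (adjusted p = 0.926).

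The call against Dcp1a siRNA turned on single arrays. The double knockdown differed from Dcp1a siRNA by -1.28 ± 0.48 (adjusted p = 0.102). Without double knockdown replicate 3 it was -1.74 with an adjusted p of 0.0308, and without Dcp2 siRNA replicate 2, which enters only through the shared spread, the adjusted p was 0.0447. Over all probe sets, calls in this comparison rose from 1398 to 2298 and 2162 in these fits. Dcp2 siRNA differed from Dcp1a siRNA by -1.08 ± 0.48 (adjusted p = 0.223), and by -1.59 without Dcp2 siRNA replicate 2 (adjusted p = 0.0379). Leaving it out raised the calls over all probe sets from 7 to 1866. Dcp2 siRNA replicate 2 is the array that resembled the Dcp1a siRNA arrays over the tested probe sets, and its part in the result beyond these values was not tested.

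The other Atf6 probe set, 1453288_at, read 141.7, 194.5 and 148.6 in controls, 151, 211.4 and 121.6 after Dcp1a siRNA, 109.5, 107.3 and 103.8 after Dcp2 siRNA, and 121.7, 116.8 and 63.4 in the double knockdown. All 6 arrays with Dcp2 siRNA were below all 3 controls. The log2 differences were -0.58 ± 0.28 after Dcp2 siRNA (adjusted p = 0.425) and -0.73 ± 0.28 in the double knockdown (adjusted p = 0.131, unadjusted p = 0.0246). Of all tested probe sets, 5.21% lay wholly below control after Dcp2 siRNA and 11.8% in the double knockdown. Neither difference was called, and the third probe set, 1435444_at, stayed at 6.4 to 9.5.

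Ern1 encodes the sensor whose nuclease splices Xbp1. The gene lies at chr11:106397620-106487796. Probe set 1437119_at was among the brightest of the array, above 97.8% of tested probe sets by its mean. It read 13357.1, 13847.1 and 15248.1 in controls, 15225.9, 15879.6 and 19457.2 after Dcp1a siRNA, 13531.4, 16312.5 and 12374.7 after Dcp2 siRNA, and 12636.1, 11791.9 and 14509.5 in the double knockdown. The double knockdown overlapped the controls and lay wholly below the Dcp1a siRNA arrays. Its difference from control was -0.13 ± 0.17 (95% interval -0.51 to 0.26, adjusted p = 0.642). Against Dcp1a siRNA it was -0.37 ± 0.17 (adjusted p = 0.168).

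The dimmer probe set of Ern1, 1421240_at, read 197.8, 196.2 and 158.6 in controls and 211.5, 201.2 and 222.3 after Dcp1a siRNA. It read 103.5, 239.8 and 120.3 after Dcp2 siRNA and 124.2, 71.2 and 140.1 in the double knockdown. The 3 double knockdown arrays lay below every control and every Dcp1a siRNA array, and Dcp2 siRNA replicate 2 was again the high array of its group. The difference from control in the double knockdown was -0.77 ± 0.32 (adjusted p = 0.158, unadjusted p = 0.0371). Against Dcp1a siRNA it was -0.98 ± 0.32 (adjusted p = 0.0737). That difference was called without Dcp2 siRNA replicate 2 (adjusted p = 0.0247), without double knockdown replicate 3 (-1.17, adjusted p = 0.0444) and in a fit on only the compared arrays (adjusted p = 0.0418). Over all probe sets these fits called 2162, 2298 and 2779, against 1398 in the main fit. Dcp2 siRNA against control gave -0.35 ± 0.32 (adjusted p = 0.579), and -0.72 without Dcp2 siRNA replicate 2 (adjusted p = 0.127). Dcp2 against Dcp1a siRNA gave -0.55 (adjusted p = 0.320), and -0.92 without Dcp2 siRNA replicate 2 (adjusted p = 0.0470). Calls over all probe sets were 7 and 1866 in these fits. The remaining Ern1 probe sets stayed below the filter, at 8.7 to 16.3 on 1450176_at, 5.1 to 8.1 on 1431886_at and 4.9 to 5.8 on 1438583_at.

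**Figure D2:**
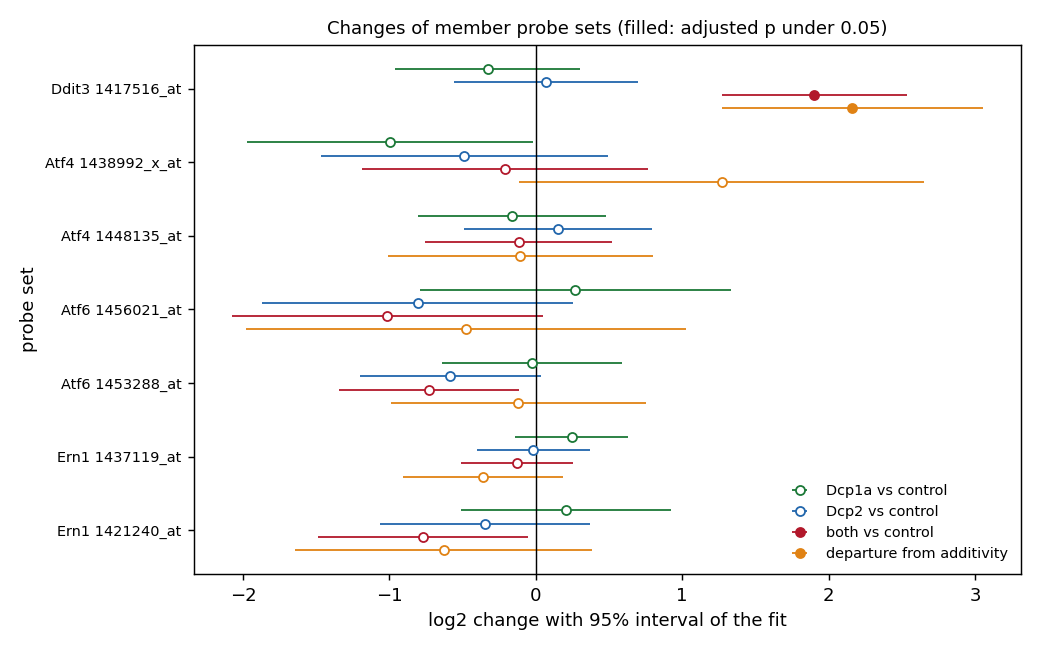
Log2 change with its 95% interval (x axis) of each tested member probe set (y axis) for the knockdowns against control and for the departure from additivity, filled where the adjusted p was under 0.05. The filled points are those of Ddit3 in the double knockdown (1.90) and in the departure from additivity (2.16), and the intervals of Atf4 1438992_x_at and Atf6 1456021_at are the widest.

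Xbp1, whose spliced mRNA encodes the factor downstream of IRE1, and Trib3, a target of ATF4 and CHOP, were at or near the floor. Of the 144 values on the 12 untested member probe sets, 1 exceeded 32. It was the 34.2 of Xbp1 probe set 1437223_s_at on double knockdown replicate 3, the array where Ddit3 was highest, while that probe set went down to 4.9 on other arrays. Xbp1 probe set 1420011_s_at read 5 to 8.7, again highest on that array. Xbp1 probe sets 1420012_at and 1420886_a_at read 4.9 to 5. Both Trib3 probe sets read 4.9 to 5.2. No change of either gene was detectable on these probe sets, which bounds only what this array registers. Xbp1 lies at chr11:5520641-5525993 and Trib3 at chr2:152337425-152344060.

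Across the 7 tested member probe sets, the median log2 change in the double knockdown was -0.21, against -0.02 for all tested probe sets. It was -0.03 after Dcp1a siRNA (0.09 for all) and -0.35 after Dcp2 siRNA (-0.11 for all). Arrays of the double knockdown and the controls did not overlap for 3 of the 7: Ddit3 was higher, and Atf6 1453288_at and Ern1 1421240_at were lower. Of all tested probe sets, 12.9% lay wholly above control and 11.8% wholly below. Against Dcp1a siRNA, the double knockdown lay wholly above for 2 of the 7 and wholly below for 3, and the shares of all probe sets were 21.5% and 27.1%. Against Dcp2 siRNA it lay wholly above for 1 and below for 0 (16.2% and 5.01% of all). Dcp1a siRNA arrays lay wholly above control for 1 and below for 0 (7.19% and 4.42% of all). Dcp2 siRNA arrays lay wholly above control for 0 and below for 1 (2.17% and 5.21% of all). Dcp2 siRNA arrays lay wholly above Dcp1a siRNA for 0 and below for 1 (7.97% and 22% of all). These shares show that separation of 3 arrays from 3 was common on this array in the double knockdown. The 7 probe sets belong to 4 genes, so they are not independent.

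Other genes of the response were taken from a list of 95 in 6 roles, of which 92 were on the array and 69 were tested, each by its brightest tested probe set. In the double knockdown against control, 4 of the 69 were called higher (5.8%) and 0 lower (14 higher and 10 lower at an unadjusted p under 0.05), and 65 were not called. Of all tested genes, 6.79% were called higher and 1.66% lower, so the share of the list was near the background. The median log2 change was 0.15, against 0.00 for all genes, and 37 of 69 changes were positive. Without control replicate 1, 14 of the list were called, all higher, beside 2451 of all probe sets (1816 higher). After either single siRNA, 0 of the 69 were called against control, where 0.0286% of all genes were called in each direction after Dcp1a siRNA, and 0% higher and 0.0286% lower after Dcp2 siRNA. The unadjusted p was under 0.05 for 1 gene after Dcp1a siRNA and for 7 after Dcp2 siRNA, all lower. Without control replicate 1, the list gave 5 called after Dcp1a siRNA and 3 after Dcp2 siRNA, all higher. Over all probe sets that fit called 372 and 223.

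The called genes came from 4 different roles. Among genes of eIF2alpha phosphorylation and its exchange factor eIF2B, 1 of 10 was called (median change 0.38). This was Eif2b4, the delta subunit of eIF2B. It read 56.1, 53.7 and 161.5 in controls and 284.6, 263.2 and 308 in the double knockdown, with the 6 single knockdown arrays at 50.3 to 66.6. The double knockdown lay above all other arrays, and control replicate 3 stood above the other controls. The change was 1.86 ± 0.35 (adjusted p = 0.00777), and the departure from additivity was 2.76 ± 0.49 (adjusted p = 0.0105). Without the filter these adjusted p-values were 0.0644 and 0.0936, and with only the compared arrays fitted that of the change was 0.0931.

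Among the 14 tested ATF4 and CHOP targets (median change -0.07), 2 were higher and 4 lower at an unadjusted p under 0.05. The double knockdown lay wholly above control for 3 of them and wholly below for 3 (12.9% and 11.8% of all probe sets). With adjustment, 1 of 14 was called. This was Aars, the cytosolic alanyl-tRNA synthetase. It read 36, 36 and 55.1 in controls, 33.2, 36.9 and 35.2 after Dcp1a siRNA, 50, 36 and 61.4 after Dcp2 siRNA, and 121, 163.4 and 153.3 in the double knockdown. All 3 double knockdown arrays were above the other 9. The value 36 stood on 3 of those 9. The change was 1.80 ± 0.24 (adjusted p = 0.00125), and the departure from additivity was 1.84 ± 0.34 (adjusted p = 0.0127, and 0.0756 without the filter).

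Among ER chaperones and folding enzymes, 1 of 14 was called (median change 0.02). This was Calr, the calcium-binding chaperone calreticulin. Probe set 1417606_a_at read 1404.9, 463.5 and 1824.7 in controls and 3246.8, 3896 and 3527.6 in the double knockdown, with the single knockdowns between 835.6 and 1445.4. The double knockdown lay above every other array although controls spread widely. The change was 1.74 ± 0.43 (adjusted p = 0.0294), and the other tested Calr probe sets gave 1.39 ± 0.37 (adjusted p = 0.0406) and 1.60 ± 0.39 (adjusted p = 0.0261). The departure from additivity of 1417606_a_at was 1.58 and not called (adjusted p = 0.286), but without control replicate 2, the low control, it was 2.17 and called (adjusted p = 0.00941). The change from control on 1417606_a_at was called in 16 of 21 alternatives. Its adjusted p was 0.140 with only the compared arrays fitted, 0.192 without the filter, and 0.0778, 0.108 and 0.0537 without double knockdown replicate 1, 2 or 3. The other 2 probe sets were called in 12 and 16 of 21.

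Among genes of ER-associated degradation and translocation, 1 of 18 was called (median change -0.08). This was Derl3, a derlin of the retrotranslocation machinery. It read 26.7, 22.9 and 52.3 in controls and 125.7, 136.7 and 82.3 in the double knockdown, with single knockdowns at 18.8 to 50.5. The double knockdown was above all other arrays. The change was 1.82 ± 0.39 on the log2 scale, or 3.54-fold (95% interval 1.95 to 6.43, limma adjusted p = 0.0161). The mean log2 value of controls was below the filter level. With each control taken at no less than that level, the change was 2.98-fold, and this value was not tested. The tested change was called in 16 of 21 alternatives. Its adjusted p was 0.116 without the filter, 0.0671 with only the compared arrays fitted, and 0.0771 without control replicate 2. It was 0.0641 and 0.0737 without double knockdown replicate 1 or 2.

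**Figure D3:**
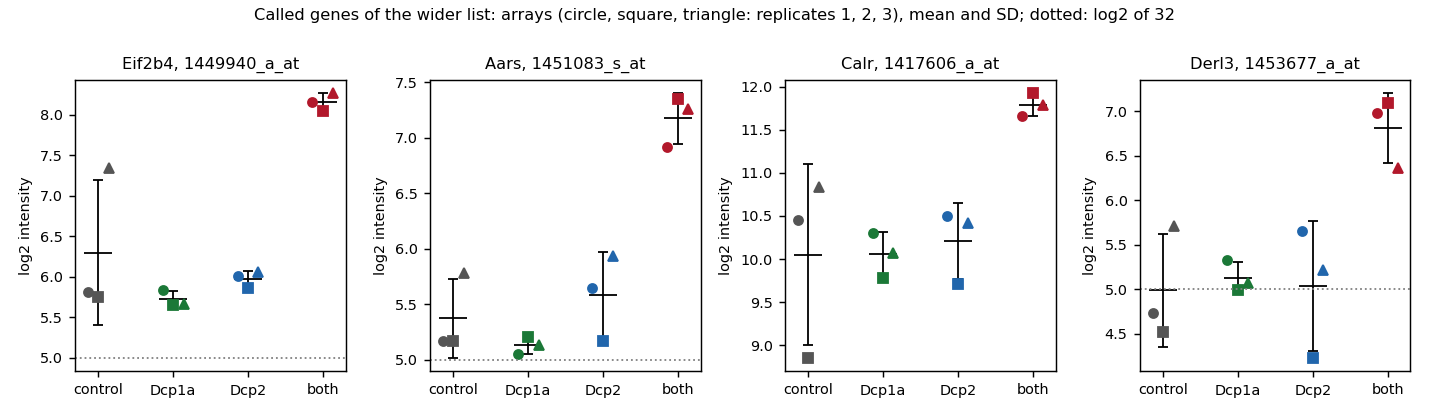
Log2 intensity (y axis) of the 4 called genes of the wider list by siRNA group (x axis), with each array as a circle, square or triangle for replicates 1, 2 and 3, the mean and SD of 3 arrays, and a dotted line at log2 of 32. For Eif2b4, Aars, Calr and Derl3 the 3 double knockdown arrays lie above the 9 others.

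Sensors and their processing enzymes held 0 called of 7 (median change -0.32), and transcription factors 0 of 6 (median change 0.47). Tmbim6, an ER membrane protein that restrains IRE1, had the smallest p of the sensors, with 1.11 ± 0.38 (adjusted p = 0.0970). It was called without control replicate 1, at 1.60 (adjusted p = 0.00441). Creb3, an ER-anchored transcription factor, had the smallest p of the factors, at 0.57 ± 0.24 (adjusted p = 0.163). Nfe2l2, in the same role, had nearly the same p and went the other way, at -0.67 ± 0.29 (adjusted p = 0.163). The PERK gene Eif2ak3 differed by -0.60 ± 0.40 (adjusted p = 0.332).

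Some further genes are named after their values were seen, because they are common readouts of the response. Hspa5, the main ER chaperone BiP, read 1579.5, 2100 and 3830.4 in controls, 514.9, 1895.6 and 303.5 after Dcp2 siRNA, and 829.9, 539.6 and 1796.3 in the double knockdown. As on Atf6 probe set 1456021_at, but not on 1453288_at, Dcp2 siRNA replicate 2 and double knockdown replicate 3 were the high arrays of their groups. The difference of the double knockdown was -1.33 ± 0.63 (adjusted p = 0.192), and -1.61 (adjusted p = 0.0372) without control replicate 1 and Dcp2 siRNA replicate 2. The ER chaperone Hsp90b1 differed by -0.51 ± 0.22 (adjusted p = 0.163).

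Ppp1r15a encodes GADD34, the CHOP-induced subunit that directs eIF2alpha dephosphorylation. It read 1124.2, 456 and 442.2 in controls and 1300.7, 1186.7 and 1251.2 in the double knockdown, above every control. The difference was 1.03 ± 0.34 (adjusted p = 0.0871), and it was called without control replicate 1, at 1.47 (adjusted p = 0.00378). Chac1, a glutathione-degrading enzyme induced by ATF4, read 60, 77.9 and 201.5 in the double knockdown and 52.7 to 56.1 on the other 9 arrays, where 56.1 stood on 6. The double knockdown was above all others, but its own arrays spread widely, and the difference of 0.82 ± 0.35 was not called (adjusted p = 0.160). Both Chac1 and Ddit3 were highest on double knockdown replicate 3.

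**Figure D4:**
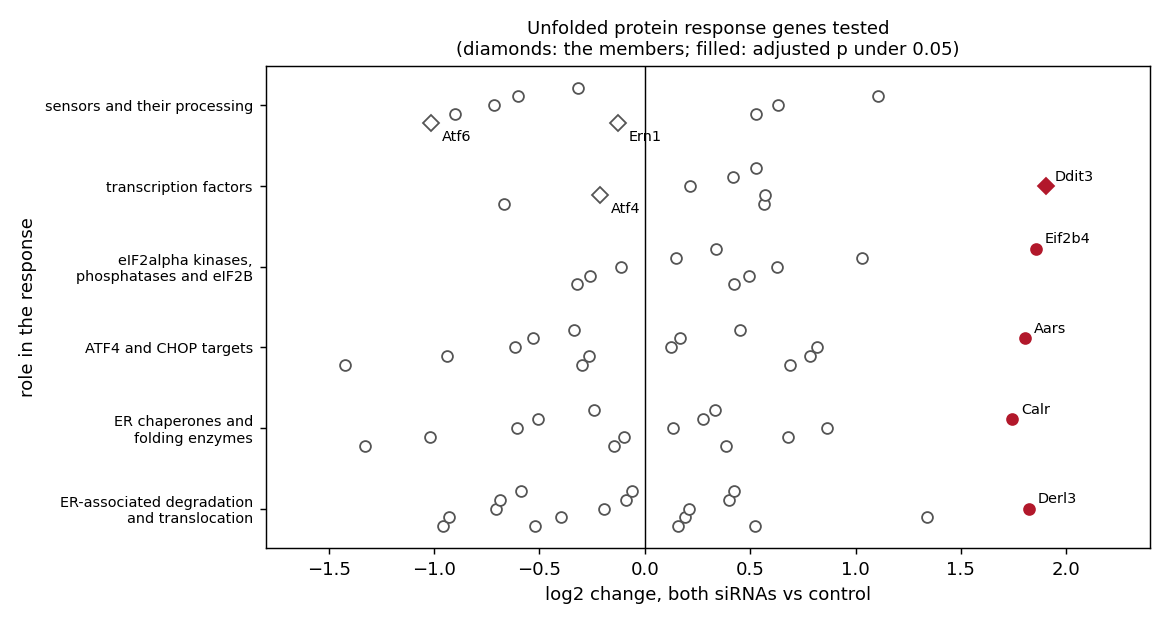
Log2 change in the double knockdown against control (x axis) of every tested gene of the response, by role (y axis), with the member genes as diamonds and called genes filled. Each role spreads on both sides of 0, and the filled points, including Ddit3 at 1.90, all lie to the right.

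The departure from additivity was called upward for 3 of the 69 genes and downward for 0. These were Eif2b4, Aars and Rtcb, the RNA ligase that joins the Xbp1 exons after IRE1 cuts them, which is described here after its values were seen. Rtcb read 96.7, 107.9 and 184.1 in controls, 77.3, 79.2 and 81.9 after Dcp1a siRNA, 58.4, 95.8 and 112.1 after Dcp2 siRNA, and 181.1, 200.6 and 197.1 in the double knockdown. The double knockdown lay above both single knockdowns and overlapped control replicate 3. Its difference from control was 0.63 ± 0.28 and not called (adjusted p = 0.170). It was higher than after Dcp1a siRNA by 1.28 ± 0.28 (adjusted p = 0.0131) and than after Dcp2 siRNA by 1.17 ± 0.28 (adjusted p = 0.0284). The departure was 1.82 ± 0.39 (adjusted p = 0.0265), called in 13 of 20 alternatives. That call was lost without the filter (adjusted p = 0.153) and without any 1 of the Dcp1a siRNA arrays (0.0705 to 0.0757) or of the double knockdown arrays (0.0567 to 0.0718). Of all tested genes, 3.72% departed upward and 0.0572% downward. Without control replicate 1, the departure was called for 4 of the 69 genes and for 626 of all probe sets. The double knockdown against Dcp1a siRNA alone gave 6 higher and 4 lower, against 8.19% and 3.32% of all genes, and against Dcp2 siRNA alone 5 higher and 0 lower, against 5.89% and 0.272%. Dcp2 against Dcp1a siRNA gave 0 called (at an unadjusted p under 0.05, 3 higher and 14 lower), against 0.0143% higher and 0.0572% lower of all genes.

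The transcripts whose log2 values were most like Ddit3 over the 12 arrays, among 10454 probe sets with 1 other symbol, were Nudc (r = 0.967), Gpx4 (r = 0.967) and Mrps7 (r = 0.961). Nudc encodes a chaperone cofactor of nuclear movement, Gpx4 a peroxidase of lipid peroxides and Mrps7 a mitochondrial ribosomal protein. Nudc read 164.5 to 214.4 in the double knockdown and 75.5 to 96 on the other 9 arrays, and Mrps7 read 50.9 to 62.9 and 12.2 to 18.8. Mrps7 thus passed the filter only through the double knockdown arrays, where Ddit3 was high. Its r with Ddit3 was in part set by the filter. Gpx4 moved little, from 35.3 to 37.4 up to 44.2 to 48, and 5 arrays shared the value 36.9. The likeness is that of a step in 1 group of 3 arrays, and the arrays are common to all values.

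For Atf4 1438992_x_at the most alike were Rlim (r = 0.915), Klhl13 (r = 0.910) and Ran (r = 0.891). For Atf6 1456021_at they were Ccz1 (r = 0.994), Zfp280d (r = 0.993) and Nup98 (r = 0.993). Like this Atf6 probe set, each was highest in its group on Dcp2 siRNA replicate 2 and on double knockdown replicate 3. These r values thus follow single arrays as well as the groups. For Ern1 1437119_at they were Cpne3 (r = 0.950), Brpf1 (r = 0.946) and Tcf20 (r = 0.941). Of these, Cpne3 (35.4 to 70.9, with 46.7 on 4 arrays) and Brpf1 (25.5 to 62.7) read near the filter level. The same Atf6 probe set had r = 0.32 with the other Atf6 probe set, r = 0.86 with Ern1 1421240_at and r = 0.83 with Ern1 1437119_at. Both of these Ern1 probe sets had the same high array among the Dcp2 siRNA samples, replicate 2.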

How the data were processed

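RNA from pools of 30 eggs was amplified and labelled by an Affymetrix small-sample method, per the labels' protocols. The deposited table holds 1 intensity per probe set and array, made by the authors with GCRMA per the submitters' processing notes (version: not given in the sources used here). The method corrects background by probe sequence, which sets floors, and normalizes between arrays, so each intensity is relative to its array and a change in total mRNA per egg does not show. Of all values, 55.6% were at or under 5.

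Values were taken to log2. After leaving out 64 controls, 11593 of 45037 probe sets passed the filter. Group means over the 12 arrays were tested two-sided by limma (lmFit, then eBayes with no trend; version 3.58.1, R 4.3.3), which had 8 residual degrees of freedom and 2.97 from the prior, with Benjamini-Hochberg adjustment over all tested probe sets. P-values measure the spread between pools. Arrays carry no read depth, so their number limits precision. Symbols came from the platform's annotation (34945 with 1 symbol, 932 with several, 9160 with none), and coordinates are RefSeq's on GRCm38.p6. No sample column was left unused (0).

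Named are the 6 members, up to 4 called genes without overlap per role (or that of smallest p), the 3 transcripts most like each member, and Dcp1a and Dcp2. Members and lists were chosen with earlier results of these data known. Motif scans used Python 3.11.15. The fit was run on simulated data with independent noise for each probe set and array. That setting lacks the likeness between arrays of different groups seen here. It therefore does not bear on how the calls depend on single arrays. Alternatives changed the filter, floor, centring, quantile normalization, variance trend, arrays fitted, replicate block and single arrays. Same-numbered arrays of different groups correlated in their deviations from group means at -0.69 to 0.39 (median 0.09, 18 pairs), so the replicate numbers were not treated as pairs.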

Additional observations from a re-analysis of the deposited data

Results flagged for a closer look

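The change by Dcp2 siRNA differed by whether Dcp1a siRNA was also present, by limma's interaction term, for 4 of the genes described: Ddit3 by 2.16 (SE 0.40, adjusted p = 0.0132), Eif2b4 by 2.76 (SE 0.49, adjusted p = 0.0105), Aars by 1.84 (SE 0.34, adjusted p = 0.0127) and Rtcb by 1.82 (SE 0.39, adjusted p = 0.0265), all on the log2 scale. For Ddit3, Eif2b4 and Aars the 3 double knockdown arrays lay above the 9 others, and for Rtcb they overlapped 1 control array. Without the filter on dim probe sets their adjusted p-values were 0.0978, 0.0936, 0.0756 and 0.153. Groups of 3 arrays are too small for a test of single outlying arrays.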

How the results depend on the processing

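The call of Ddit3 over control held under all 21 alternatives, and no result that was called changed sign. Member counts were 0 after Dcp1a siRNA, 0 after Dcp2 siRNA and 1 in the double knockdown with every single array left out, 1 to 3 for double knockdown against Dcp1a siRNA (3 without Dcp2 siRNA replicate 2 or double knockdown replicate 3), 1 against Dcp2 siRNA, 0 to 2 for Dcp2 against Dcp1a siRNA (2 without Dcp2 siRNA replicate 2) and 1 for the departure from additivity. Counts in the list of 69 were 0 to 5 after Dcp1a siRNA and 0 to 3 after Dcp2 siRNA (both highest without control replicate 1), 2 to 14 in the double knockdown (14 without control replicate 1) and 2 to 4 for the departure. Without the filter, the list gave 1 in the double knockdown and 0 for the departure, and the members gave 0 for the departure. With only the compared arrays fitted, the list gave 1 in the double knockdown, and the members gave 2 for double knockdown against Dcp1a siRNA. In a fit chosen after seeing the data, on 10 arrays without control replicate 1 and Dcp2 siRNA replicate 2, the list gave 6 after Dcp1a siRNA, 20 after Dcp2 siRNA (10 higher, 10 lower), 18 in the double knockdown (14 higher, 4 lower) and 5 for the departure. Over all probe sets that fit called 627, 2419, 3215 and 683 in the same order. The members gave 3 for double knockdown against Dcp1a siRNA and 2 for Dcp2 against Dcp1a siRNA. Over all probe sets 2672 and 2474 were called there. The causes were not tested. Over all probe sets, the double knockdown gave 1011 calls, 444 to 2451 with single arrays left out, 527 without the filter and 277 with only the compared arrays. Of these calls 76% were higher as deposited, 65.8% after median centring and 66.8% after quantile normalization. Median centring moved the median log2 change of all genes from 0.10 to -0.02 after Dcp1a siRNA, from -0.08 to 0.10 after Dcp2 siRNA and from 0.00 to -0.03 in the double knockdown. With a replicate block, member counts were 0, 0, 1, 1, 1, 0 and 1 in the order of the comparisons above and no member call changed. The block gave 4 for the list in the double knockdown, and 819 over all probe sets. No pairing by replicate number was visible: 3 of 12 arrays correlated best with their own number. With 3 arrays a group, this cannot exclude pairing. Low signal limits Ddit3, Aars, Derl3 and Chac1, and Xbp1 and Trib3 could not be assessed.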

Other observations

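Other probe sets of the wider list were called in the double knockdown where the gene's brightest one was not, and they are named after their values were seen. Os9, a lectin of ER-associated degradation, rose by 1.76 ± 0.26 on 1426974_at (adjusted p = 0.00227), with 172.2 to 312.5 in the double knockdown and 51.6 to 117.5 on the other 9 arrays. Its brighter probe set 1426975_at went the other way, at -0.93 ± 0.27, and was not called (adjusted p = 0.0599). Sec61a1, the channel of the ER translocon, rose by 1.63 ± 0.40 on 1448242_at (adjusted p = 0.0272), with 294.8 to 333 against 67.4 to 238.1, while its brightest probe set gave 0.52 ± 0.19 (adjusted p = 0.114). The Sec61a1 call held in 15 of 21 alternatives. It was lost without the filter (adjusted p = 0.178), with only the compared arrays fitted (0.153), without control replicate 2 (0.121) or 3 (0.0787), and without double knockdown replicate 1 (0.0881) or 2 (0.0961). The Os9 call held in all 21.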
